A study of Mus musculus with 6 samples.

Results

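The 9 genes described here make up a small p53 axis: Trp53, which encodes the transcription factor p53, its regulators Mdm2 and Mdm4, and the p53 target genes Trp53inp1, Cdkn1a, Ccng1, Zmat3, Phlda3 and Sesn1. They were chosen by symbol, with the FPKM of these libraries already known, from 24346 gene symbols per library, and all 9 were found. FPKM is the number of sequenced fragments scaled to transcript length and to the mapped depth of the library. The libraries were made from RNA of mouse plasma cells, the antibody-secreting form of the B cell, taken from the spleen. Congenically marked B1-8germ B cells, whose B1-8 heavy chain recognises the hapten NP, had been given to wild-type C57BL/6J mice, and the mice received NP-CGG/alum. The donor-derived plasma cells were sorted on day 7 into IgG1 cells, which have switched isotype, and IgM cells, which have not, with 3 libraries of each. Both groups share the donor cells, the host strain, the antigen, the day and the organ. By the labels they differ in the sorted isotype. No label ties a library to its own mouse, so the spread between libraries, and any p-value built on it, may be technical. The comparison asks how switched plasma cells differ from unswitched ones of the same response.

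p53 is made continuously and kept scarce: the Mdm2 protein is a ubiquitin ligase that marks p53 for destruction, and its relative Mdm4 binds p53 and blocks its activity. DNA damage and other stresses release p53, which then switches on genes that stop the cell cycle, repair DNA or kill the cell. Mdm2 is itself a p53 target, so the pathway limits itself. Plasma cells arise from rapidly dividing B cells and then leave the cell cycle, an exit in which inhibitors of cyclin-dependent kinases take part.

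A search of the RefSeq promoter windows (GRCm38.p6, 250 bases before to 50 after an annotated start) covered 7 of the 9 genes with 10 windows. The motif was the p53 consensus half-site, a run of 10 bases that p53 binds in pairs and that reads as the same pattern on both strands. At least 1 half-site stood in 5 of the 10 windows, against 8.36% of all 32851 windows. The windows of Mdm2, Cdkn1a and Ccng1 are shown because these 3 genes held a half-site and had a lower, a higher and a similar level in IgG1 cells. They lie at chr10:117710709-117711008 on the minus strand (Mdm2), chr17:29090729-29091028 on the plus strand (Cdkn1a) and chr11:40755237-40755536 on the minus strand (Ccng1). Capitals mark the half-sites.
Mdm2: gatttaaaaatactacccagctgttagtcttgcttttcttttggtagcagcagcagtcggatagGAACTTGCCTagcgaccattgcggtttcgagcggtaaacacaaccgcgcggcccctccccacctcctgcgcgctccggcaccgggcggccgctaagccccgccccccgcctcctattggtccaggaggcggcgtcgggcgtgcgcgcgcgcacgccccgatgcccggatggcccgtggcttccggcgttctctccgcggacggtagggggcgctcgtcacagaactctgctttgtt
Cdkn1a: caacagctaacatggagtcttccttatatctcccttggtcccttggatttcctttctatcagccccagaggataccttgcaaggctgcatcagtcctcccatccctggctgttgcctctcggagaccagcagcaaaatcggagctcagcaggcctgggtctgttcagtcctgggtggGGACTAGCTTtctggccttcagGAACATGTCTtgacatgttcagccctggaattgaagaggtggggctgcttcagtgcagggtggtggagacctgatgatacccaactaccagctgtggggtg
Ccng1: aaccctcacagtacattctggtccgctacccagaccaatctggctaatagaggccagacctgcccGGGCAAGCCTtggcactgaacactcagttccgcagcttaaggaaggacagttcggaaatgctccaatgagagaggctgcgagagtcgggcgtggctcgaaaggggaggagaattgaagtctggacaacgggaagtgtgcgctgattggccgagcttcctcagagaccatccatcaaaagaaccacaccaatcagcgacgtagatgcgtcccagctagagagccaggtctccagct
The half-site of Mdm2 began 186 bases before the start and that of Ccng1 began 185 bases before it. The Cdkn1a window held 2 half-sites, which began 73 and 51 bases before the more upstream of its 2 annotated starts and were 12 bases apart. Only exact matches were marked, and the 10 bases directly after the half-site at 51, tgacatgttc, miss the pattern at 1 base. A pair of exact half-sites no more than 13 bases apart was found in 0.0731% of all windows. The other half-sites stood in 1 of the Sesn1 windows (173 bases before the start) and in the Trp53 window (75 bases before it). These matches describe the letters of the windows and say nothing of binding in these cells.

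Mdm2 and Trp53inp1 were the members with the lower level in IgG1 cells in every library, at 0.365 and 0.354 of their IgM mean, while Cdkn1a was the member with the largest excess, 5.15 times its IgM mean on a low level. Trp53 itself was at 1.30 times its IgM mean and Ccng1 at 1.05 times. Of the 7 members that passed the filter (3 or more of the 6 libraries at an FPKM of 1 or higher), limma's fit over all 9087 genes called 2 lower (Mdm2 and Trp53inp1) and 0 higher, at a Benjamini-Hochberg adjusted p under 0.05. It called 1.76% of all tested genes lower and 4.26% higher. The groups did not overlap for Mdm2 and Trp53inp1 (lower) and for Trp53 and Cdkn1a (higher), as for 13.5% of all tested genes in the lower and 13.7% in the higher direction. The members were chosen with this contrast known, so these calls and all differences of members below are a description, and nothing is read from the calls. In RNA pooled from many cells, fewer cells expressing a gene and less RNA per cell cannot be told apart.

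**Figure D1:**
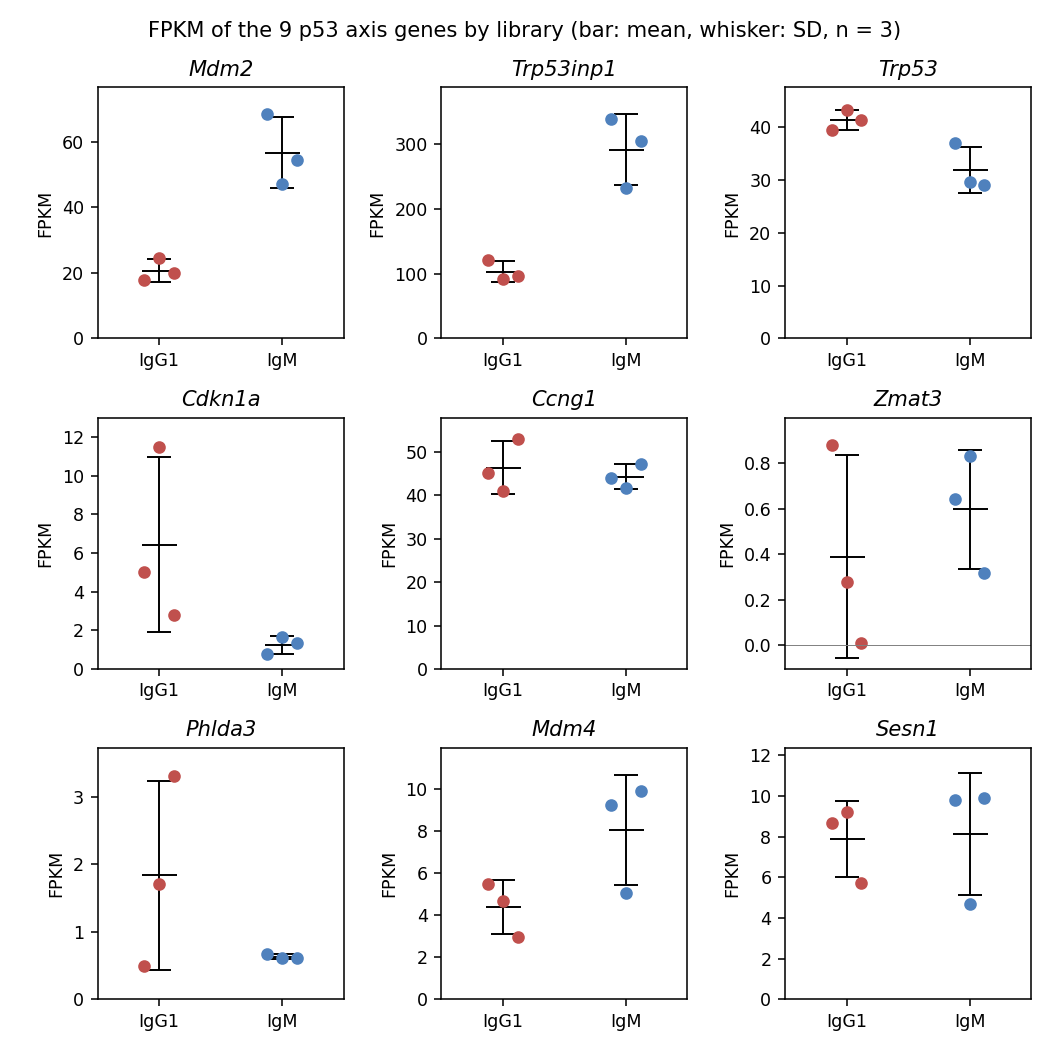
FPKM (vertical axes, each from 0 or just below) of the 9 genes in the 3 IgG1 (left) and 3 IgM (right) libraries; points are libraries, bars means and whiskers SD. Mdm2 and Trp53inp1 sit lower in all IgG1 libraries, and Cdkn1a sits higher with a wide spread.

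Trp53 encodes p53. It had 39.4, 43.2 and 41.4 FPKM in IgG1 libraries 1 to 3, against 37.0, 29.6 and 29.1 FPKM in IgM libraries 1 to 3. Every IgG1 library was above every IgM library. The means were 41.3 ± 1.91 FPKM in IgG1 and 31.9 ± 4.43 FPKM in IgM cells (SD, n = 3 each), a log2 difference of FPKM + 1 of 0.37 (limma SE 0.19). With the libraries scaled to equal sums without Jchain, the joining chain gene, it was 0.14. Trp53 lies on chromosome 11 from 69580359 to 69591873 (GRCm38, plus strand), and its exons overlap those of no other annotated gene. A processed copy, Trp53-ps, is annotated, and reads shared with it could have been assigned to either.

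Mdm2 encodes the ligase that restrains p53. It had 17.7, 24.5 and 20 FPKM in the IgG1 libraries, against 68.4, 47.2 and 54.4 FPKM in the IgM libraries. The highest IgG1 library was well below the lowest IgM library. Means were 20.7 ± 3.49 FPKM in IgG1 and 56.7 ± 10.8 FPKM in IgM cells (SD, n = 3 each), and the log2 difference was -1.41 (SE 0.21). Among the 9087 tested genes this difference was the 155th from the lowest. In rank of level, Mdm2 stood between places 3150 and 3805 of 24346 symbols in the IgG1 libraries and between 1523 and 2047 in the IgM libraries. The gene lies on chromosome 10 from 117688875 to 117710758 (minus strand).

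Mdm4, the non-ligase partner that also inhibits p53, was expressed at a lower level than Mdm2 in all 6 libraries. It had 5.49, 4.67 and 2.99 FPKM in IgG1 cells, against 9.25, 5.08 and 9.90 FPKM in IgM cells. The groups overlapped, since IgM library 2 lay below IgG1 library 1. The log2 difference was -0.74 (SE 0.39). An annotated copy, Mdm4-ps, makes the level uncertain to the extent that reads were shared.

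Set against each other within a library, which removes the scaling between libraries, Mdm2 and Trp53 stood in a different order in the 2 groups. There were 0.448, 0.567 and 0.483 Mdm2 FPKM per Trp53 FPKM in IgG1 cells, against 1.85, 1.60 and 1.87 in IgM cells. Mdm2 RNA was thus the scarcer of the pair per unit of length in each IgG1 library and the more abundant one in each IgM library. The Mdm2 to Mdm4 ratio was 3.22, 5.25 and 6.68 in IgG1 cells and 7.40, 9.29 and 5.49 in IgM cells, and these ranges overlapped. Mdm4 per Trp53 was 0.107 ± 0.0335 in IgG1 and 0.254 ± 0.0843 in IgM cells (SD, n = 3 each).

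**Figure D2:**
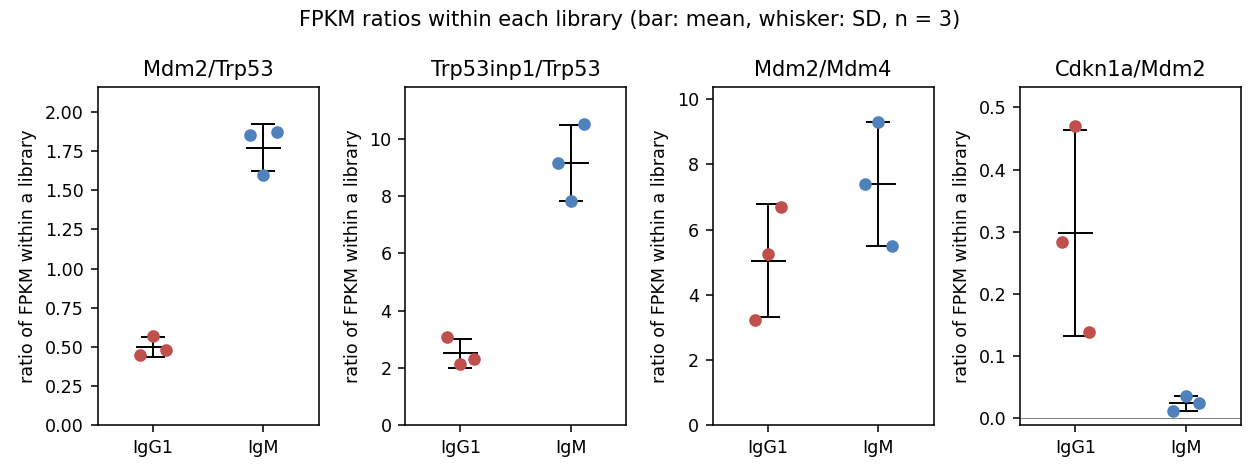
Ratios of FPKM within each library (vertical axes) for 4 pairs of members in the 3 IgG1 (left) and 3 IgM (right) libraries; bars are means and whiskers SD. Mdm2 per Trp53 is 0.448 to 0.567 in IgG1 and 1.60 to 1.87 in IgM, while Mdm2 per Mdm4 overlaps.

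Trp53inp1 encodes a p53-induced stress protein of the nucleus and of autophagosomes, and it was the most abundant of the 9 transcripts per unit of length in every library. It had 122, 92.6 and 96.0 FPKM in IgG1 cells, against 339, 232 and 305 FPKM in IgM cells. The lowest IgM library was well above the highest IgG1 library. Means were 103 ± 15.8 FPKM in IgG1 and 292 ± 54.8 FPKM in IgM cells (SD, n = 3 each), and the log2 difference was -1.48 (SE 0.16), the 123rd from the lowest of the 9087. Per Trp53, Trp53inp1 was at 2.52 ± 0.501 in IgG1 and 9.16 ± 1.33 in IgM cells. Mdm2 and Trp53inp1 together made up 51.2% to 57.0% of the summed FPKM of the 9 genes in IgG1 cells and 76.8% to 80.0% in IgM cells. Trp53inp1 lies on chromosome 4 from 11156431 to 11174379 (plus strand) with no overlapping gene.

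Cdkn1a encodes p21, the inhibitor of cyclin-dependent kinases through which p53 halts the cell cycle. It had 5.02, 11.5 and 2.78 FPKM in IgG1 cells, against 0.765, 1.67 and 1.32 FPKM in IgM cells. All IgG1 libraries were above all IgM libraries, but the IgG1 libraries differed among themselves more than those of any other tested member on the log2 scale (SD 0.87, against 0.07 to 0.36 for the other 6). Means were 6.44 ± 4.54 FPKM in IgG1 and 1.25 ± 0.456 FPKM in IgM cells (SD, n = 3 each), with a log2 difference of 1.57 (SE 0.49), or 0.80 with a pseudocount of 5 in place of 1. By an estimate from the lowest FPKM steps, the values stand for 120, 263 and 66.4 fragments in IgG1 and 19.1, 41.8 and 36.2 in IgM libraries. Within a library Cdkn1a per Mdm2 was 0.139 to 0.470 in IgG1 cells and 0.0112 to 0.0354 in IgM cells. The gene lies on chromosome 17 from 29090976 to 29100727 (plus strand), and its exons overlap an unclassified transcript on the other strand, whose reads cannot be told apart without strand.

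Ccng1 encodes cyclin G1, a p53 target that acts back on Mdm2 through a phosphatase. It had 45.1, 41.0 and 53 FPKM in IgG1 cells, against 44.0, 41.6 and 47.3 FPKM in IgM cells. The groups overlapped, with a log2 difference of 0.06 (SE 0.18) that was -0.17 when the libraries were scaled to equal sums without Jchain. Sesn1 encodes sestrin 1, a p53-induced brake on the growth kinase mTORC1. It had 8.67, 9.23 and 5.73 FPKM in IgG1 cells, against 9.83, 4.68 and 9.89 FPKM in IgM cells. These groups also overlapped, with a log2 difference of 0.00 (SE 0.38).

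Zmat3, an RNA-binding p53 target, and Phlda3, which encodes an inhibitor of the kinase Akt, did not pass the filter. Zmat3 had 0.878, 0.279 and 0.00774 FPKM in IgG1 cells, against 0.643, 0.830 and 0.316 FPKM in IgM cells. The value of IgG1 library 3 corresponds to about 1 fragment. Phlda3 had 0.498, 1.70 and 3.30 FPKM in IgG1 cells, against 0.672, 0.611 and 0.609 FPKM in IgM cells. IgG1 libraries 2 and 3 were above the IgM range and IgG1 library 1 below it.

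**Figure D3:**
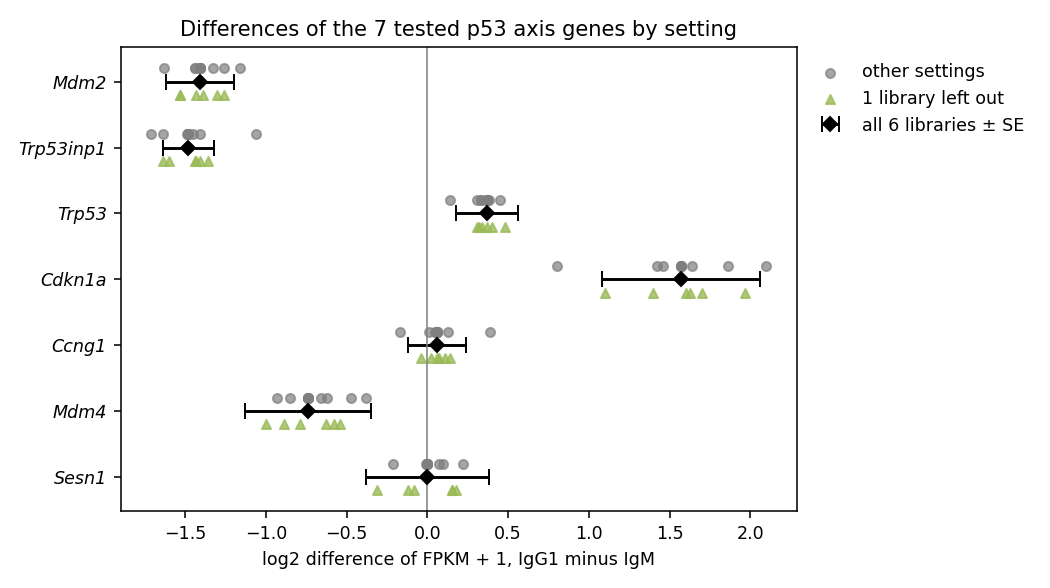
Log2 difference of FPKM + 1, IgG1 minus IgM (horizontal axis), for the 7 tested members: diamonds with SE bars for all 6 libraries, circles for other settings, triangles with 1 library left out. Mdm2 stays between -1.63 and -1.16 and Trp53inp1 between -1.71 and -1.06, while Ccng1 and Sesn1 lie on both sides of 0.

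The size of these differences moved with a property of the libraries. The Spearman rho between transcript length and a library's deviation from each gene's mean (across 8765 genes that share a library, a description) was -0.15, -0.18 and -0.24 in IgG1 and 0.30, 0.15 and 0.29 in IgM libraries 1 to 3. The tested genes had a median length of 2487.5 nt, Mdm2 one of 3122 nt, Trp53inp1 5404 nt and Cdkn1a 1542.5 nt. With each library's trend with length and GC content removed, the log2 difference was -1.16 (SE 0.21) for Mdm2, -1.06 (SE 0.13) for Trp53inp1, -0.38 (SE 0.36) for Mdm4, 0.39 (SE 0.19) for Ccng1 and 1.46 (SE 0.50) for Cdkn1a. Trp53 had 0.31 (SE 0.19) and Sesn1 0.22 (SE 0.36). The IgG1 libraries also had more gene symbols at an FPKM of 0 (12896 to 13481, against 12159 to 12560 in IgM). Pairs of IgG1 libraries correlated less (Pearson r 0.930 to 0.949) than pairs of IgM libraries (0.966 to 0.972). The part of these properties in the differences was not tested.

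The summed FPKM of 6 T cell markers was 1.13 to 7.29 in IgG1 and 2.15 to 4.73 in IgM libraries. The 6 mature B cell markers summed to 51.2 to 72.9 FPKM in IgG1 and 67.8 to 75.7 FPKM in IgM libraries. Most of this sum was Ms4a1 (45.9 to 66.4 in IgG1, 61.1 to 70.5 in IgM). The 4 NK cell markers summed to 0.961 to 9.18 in IgG1 and 1.10 to 3.45 in IgM. The 5 erythroid markers summed to 0.881 to 2.77 FPKM in IgG1 and 0.571 to 2.52 FPKM in IgM libraries, and the 3 stromal and endothelial markers to 5.20 to 11.0 in IgG1 and 6.22 to 7.66 in IgM. Ncr1, Klrb1c and Gzma of the NK list, Klf1 of the erythroid list and Pax5 of the B cell list were at 0 in all libraries. The 8 myeloid markers summed to 34.5 to 45.7 FPKM in IgG1 and 64.2 to 69.2 FPKM in IgM libraries, a difference in the direction of Mdm2 and Trp53inp1. Most of it was Cd68 (34.2 to 40.9 in IgG1, 56.1 to 58.8 in IgM). Lyz2 was at 0.160 to 5.07 in IgG1 and 4.77 to 8.44 in IgM, which overlapped. Csf1r was at 0 to 0.0162 in IgG1 and 1.11 to 2.14 in IgM, and S100a8, S100a9 and Elane were at 0. The 7 plasma cell markers, by which the labelled cell type was checked, were present in all libraries. They summed to 36681 to 39225 FPKM in IgG1 and 44125 to 50008 FPKM in IgM libraries, also in the direction of Mdm2 and Trp53inp1. Jchain, Xbp1 and Mzb1 made up most of this sum, and of these only Jchain was lower in every IgG1 library. The direction of the sum is thus that of Jchain and does not describe the list as a whole. Lower in every IgG1 library were Jchain (14208 to 16962 FPKM in IgG1, 24812 to 28583 in IgM), Tnfrsf17 (67.4 to 97.0 in IgG1, 568 to 713 in IgM), Irf4 (51.8 to 59.1 in IgG1, 86.6 to 96.7 in IgM) and Prdm1 (18.5 to 25.9 in IgG1, 35.8 to 52.0 in IgM). Xbp1 was higher in every IgG1 library (6432 to 6862 in IgG1, 5354 to 6021 in IgM), and Sdc1 and Mzb1 overlapped. The part of these markers in the results was not tested.

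Genes whose pattern was most like that of Mdm2, by the Euclidean distance between the 6 deviations of log2 FPKM + 1 from the gene mean, were Evi5 (0.413), Sept7 (0.421), Ehd4 (0.438) and Manea (0.472), among 6305 genes with a mean of at least 5 FPKM. The median distance from Mdm2 was 1.96. All 4 had every IgG1 library below every IgM library, which their selection by likeness to Mdm2 favours. Sept7, a septin of the cytoskeleton, had 43.0, 53.1 and 36.8 FPKM in IgG1 cells, against 115, 96.0 and 96.5 FPKM in IgM cells. Closest to Trp53inp1 were Rabgef1 (0.327), Fam214a (0.329), Il13ra1 (0.359) and Cd55 (0.405). Cd55, which encodes the complement inhibitor DAF, had 5.15, 3.41 and 3.96 FPKM in IgG1 cells, against 11.5, 9.79 and 11.7 FPKM in IgM cells. Mdm2 and Trp53inp1 were 0.624 apart, the 14th closest gene as seen from Mdm2 and the 18th as seen from Trp53inp1. Both were chosen with this contrast known, so their closeness is a description only.

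Among 100 other genes of the pathway, in 6 lists of targets, regulators and partners, 75 passed the filter. Of these, 8 rose and 1 fell in IgG1 cells (limma, Benjamini-Hochberg adjusted p under 0.05 over all 9087 genes), or 10.7% and 1.33%, beside 4.26% and 1.76% of all tested genes. Their median log2 difference was 0.05, against -0.05 for all genes. The lists were chosen with earlier results of these data known, so these shares and the calls below are a description. Of the 8 that rose, 5 encode ribosomal proteins of the list of Mdm2-binding proteins, and Rps27l encodes a ribosomal protein paralog. At an unadjusted limma p under 0.05, 13 of the 75 were higher and 8 lower, beside 1082 and 931 of all 9087 tested genes. Without IgG1 library 2 or 3, or IgM library 1 or 3, 2 rose and 0 fell in each case. In these 4 fits 12 or 13 were higher and 4 to 6 lower unadjusted. After quantile normalization 1 (Rps14) rose and 0 fell (12 and 7 unadjusted). After scaling to equal sums without Jchain 4 (Rps14, Rps7, Rpl11 and Rps27l) rose and 3 fell (9 and 14 unadjusted). Without the filter or without limma's intensity trend 0 passed (14 and 8, or 10 and 8, unadjusted).

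Of the cell cycle and repair targets, 8 of 11 were tested, and 1 rose and 0 fell (1 and 1 at an unadjusted p under 0.05). Btg2, an anti-proliferative gene, had 241, 273 and 285 FPKM in IgG1 cells, against 198, 191 and 183 FPKM in IgM cells (log2 difference 0.47, SE 0.12, adjusted p = 0.0376 with limma). All IgG1 libraries were above all IgM libraries. The adjusted p went up to 0.146 when 1 library was left out. Of the targets in apoptosis, metabolism and other roles, 17 of 28 were tested, and 1 rose and 0 fell (4 and 1 unadjusted). This was Rps27l, a ribosomal protein paralog induced by p53, at 2827 ± 96.6 FPKM in IgG1 and 1856 ± 188 FPKM in IgM cells (SD, n = 3 each; 0.61, SE 0.10, limma adjusted p = 0.00744). It kept an adjusted p under 0.05 when any 1 library was left out (largest 0.0458), but not after quantile normalization, where the difference was 0.28, nor without the filter or the intensity trend.

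Of the regulators of p53, 20 of 24 were tested, and 0 rose and 1 fell (0 and 2 unadjusted). Of the 11 ribosomal and nucleolar proteins that bind Mdm2 or feed into its control, 11 were tested, and 5 rose and 0 fell (6 and 2 unadjusted). The 5 that rose, all ribosomal proteins, were 45.5% of the list, beside 4.26% of all tested genes. The nucleolar members Npm1 (-0.32), Ncl (-0.67), Gnl3 (0.15) and Gltscr2 (0.24) did not pass. Apart from Rps27l, ribosomal protein genes outside the list were not set beside them, so the rise is not shown to be particular to this list. Rps14 was at 6437 ± 678 FPKM in IgG1 and 3704 ± 442 FPKM in IgM cells (0.80, SE 0.12, limma adjusted p = 0.00474). Rpl26 (0.81), Rps7 (0.61), Rpl11 (0.60) and Rps3 (0.51) were the other 4, and Rps14 alone of the 5 passed in all 6 fits that left out a library. Rpl5, which with Rpl11 holds Mdm2 in check during ribosomal stress, was at 0.34 (SE 0.11, limma adjusted p = 0.0995). After removal of the length and GC trend Rps14 (0.42), Rps7 (0.41) and Rpl5 (0.53) passed, and Rpl26 (0.45), Rpl11 (0.34) and Rps3 (0.39) did not (limma adjusted p 0.276, 0.0765 and 0.0516).

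Of the p21 partners and other inhibitors of cyclin-dependent kinases, 17 of 19 were tested, and 1 rose and 0 fell (2 and 1 unadjusted). Pcna, the replication clamp that p21 binds, was at 246 ± 30.1 FPKM in IgG1 and 175 ± 7.32 FPKM in IgM cells (SD, n = 3 each; 0.48, SE 0.13, limma adjusted p = 0.0480), with an adjusted p of up to 0.154 when 1 library was left out. Of the paralogs of the members 2 of 7 were tested, and 0 passed (0 higher and 1 lower unadjusted). Trp53inp2 had 5.39, 8.08 and 4.29 FPKM in IgG1 cells, against 12.9, 10.9 and 14.7 FPKM in IgM cells (-1.03, SE 0.34, limma adjusted p = 0.0948). Ccng2 was at 37.2 ± 5.08 FPKM in IgG1 and 47.9 ± 12 FPKM in IgM cells (-0.34, limma adjusted p = 0.387). The p53 relatives Trp63 and Trp73 did not pass the filter.

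**Figure D4:**
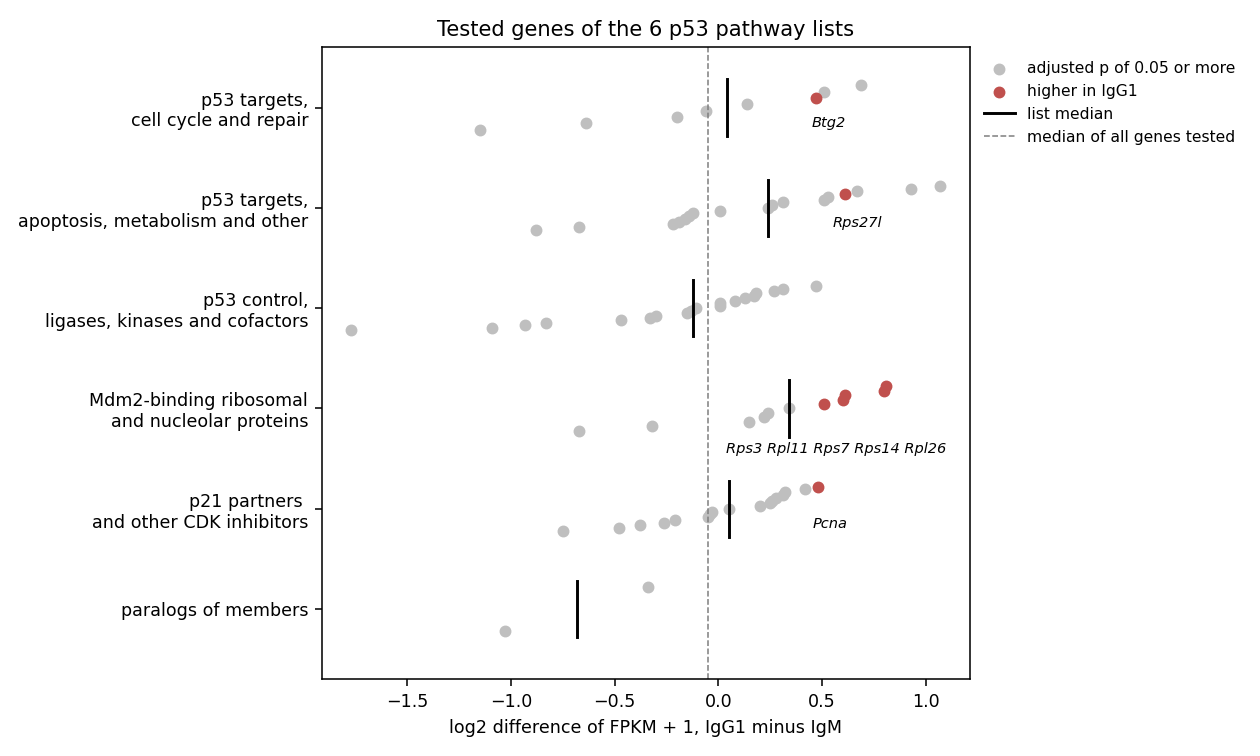
Log2 difference of FPKM + 1, IgG1 minus IgM (horizontal axis), of the tested genes of 6 p53 pathway lists; red points passed an adjusted p of 0.05 (limma) and are named, the 1 gene that fell is not plotted, black lines are medians of all tested genes of a list and the dashed line is the median of all tested genes. The 5 ribosomal protein genes of the Mdm2-binding list, Btg2, the ribosomal protein paralog Rps27l and Pcna were higher.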

How the data were processed

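Per the labels' protocols, total RNA (miRNeasy Micro kit) was turned into cDNA over its full length by SMART-Seq HT and tagmented with Nextera XT. The submitters' processing notes name Cuffdiff, Cufflinks 2.2.1, Bowtie2 2.3.5.1 and TopHat2 2.1.1, on mm10. The annotation, like the scaling of libraries to each other, was not given in the sources used here. Per gene symbol the deposited values are FPKM, per the file headers. Genes that reached an FPKM of 1 in 3 or more of 6 libraries were compared as log2(FPKM + 1) with limma 3.58.1 in R 4.3.3 (intensity trend), Benjamini-Hochberg adjusted over all 9087 genes, with a threshold of 0.05. Fold changes on this scale understate those of low genes. Members and lists were chosen with earlier results of these data known.

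Named genes were the members, up to 4 genes per direction and list past the threshold with the largest difference (or the 2 with the highest mean where none passed), and the 4 genes nearest to Mdm2 and to Trp53inp1. Rpl5, Rps3, Npm1, Ncl, Gnl3, Gltscr2, Trp63 and Trp73 are outside this rule, chosen once their values had been seen. Lengths, GC content and gene coordinates came from GENCODE vM21 (GRCm38, the assembly mm10 names); lengths were found for 95.7% of symbols. The most frequent low product of FPKM and length was read as 1 fragment, which gave about 14800000 to 15500000 fragments per IgG1 and 16200000 to 17800000 per IgM library; these are approximate. Fragment numbers of single genes use the same step. The trend with length and GC was removed with mgcv. The procedure was tested on simulated data. Immunoglobulin genes were not analysed here, so the isotype of a library was taken from its label. The 1 pathway gene that fell is counted but its values are not reported here.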

Additional observations from a re-analysis of the deposited data

How the results depend on the processing

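Across 17 alternatives, the difference of Mdm2 stayed between -1.63 and -1.16 and that of Trp53inp1 between -1.71 and -1.06. Both were called lower in 15 of the 17, and neither was called without a filter or without an intensity trend. As both were chosen with this contrast known, nothing is read from these calls. Trp53 (0.14 to 0.48) stayed positive in 17 and Cdkn1a (0.80 to 2.1) in the 16 that tested it, Mdm4 (-1.0 to -0.38) stayed negative in 17, and Ccng1 (-0.17 to 0.39) and Sesn1 (-0.31 to 0.22) took both signs. Scaling to an equal sum without Jchain moved the median of all genes to -0.25, against -0.05, and put Ccng1 at -0.17.

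Of all tested genes 387 were higher and 160 lower (70.7% higher; 80.6% after median centring, 48.5% after quantile normalization, 31.0% after equal sums). These counts were 2 and 4 without a filter, 3 and 5 without an intensity trend, 188 higher after quantile normalization, 177 and 394 after equal sums, and 178 and 82 without the length and GC trend. With 1 library left out they ran from 78 to 394 and from 30 to 251.

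Of the other pathway genes 8 were higher and 1 lower. Without a filter limma called 0 and 0 (14 and 8 at an unadjusted p under 0.05). Without an intensity trend the counts were 0 and 0 (10 and 8). They were 1 and 0 after quantile normalization (12 and 7) and 4 and 3 after equal sums (9 and 14). Median centring gave 8 and 0 (15 and 6), and removal of the length and GC trend 6 and 0 (12 and 4). With a pseudocount of 5 they were 8 and 2. With 1 library left out the counts ran from 2 to 10 and from 0 to 2 (4 to 12 lower unadjusted). The causes were not tested.

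Same-numbered libraries did not deviate together (Pearson r 0.10, -0.03 and 0.00 across genes), so the numbers were not taken as pairs. With the replicate number as a block 432 genes were higher and 154 lower, and 7 and 1 of the pathway genes.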
